A study of Mus musculus with 25 samples.

Results

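The 9 genes described here encode enzymes and a partner protein that make eicosanoids, the lipid mediators derived from arachidonic acid. They are Pla2g4a, Alox5, Alox5ap, Lta4h, Ltc4s, Alox15, Ptgs1, Ptgs2 and Ptges. They were chosen by name from the 35741 gene symbols of a count table. The rule uses no measured value, but earlier results of these data were known when the genes were chosen. All 9 passed the filter on low counts that left 16206 genes for testing. The table holds 25 bulk messenger RNA libraries of marrow neutrophils, collected at the interface of 68% and 78% Percoll from C57BL/6J females between 6 and 13 weeks old. The study addressed how Ptpn6, a phosphatase also called SHP-1, holds back inflammation that runs through caspase-8, Ripk3 and Mlkl.

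All mice other than wild-type carried at least 1 of 4 alleles: knockout of Ripk3 (Ripk3-/-), knockout of Mlkl (Mlkl-/-), and deletion of Ptpn6 or of Casp8 in neutrophils (Ptpn6ΔPMN, Casp8ΔPMN). Wild-type, Ripk3-/-, Ripk3-/- Ptpn6ΔPMN, Mlkl-/- and Ripk3-/- Mlkl-/- Ptpn6ΔPMN had 3 libraries each. Mlkl-/- Ptpn6ΔPMN, Ripk3-/- Mlkl-/-, Casp8ΔPMN Mlkl-/- Ptpn6ΔPMN and Ripk3-/- Mlkl-/- Casp8ΔPMN Ptpn6ΔPMN had 2 each. These 23 libraries in 9 groups entered the tests. Every one of the 12 tested libraries with the Ptpn6 deletion also lacked Ripk3, Mlkl or both, so the Ptpn6 deletion was measured only against those knockouts. Casp8ΔPMN Ptpn6ΔPMN had 1 library, the only one labelled as inflamed. A further library has a title and a genotype that disagree and was put in no group. The Cre line behind the deletions and any treatment of the mice are not given in the sources used here. Nothing states that the libraries of a group came from separate mice, so the p-values measure the spread between these libraries, which may be technical.

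Cytosolic phospholipase A2 (Pla2g4a) releases arachidonic acid from membranes. 5-lipoxygenase (Alox5), helped by its activating protein (Alox5ap), turns it into leukotriene A4, from which Lta4h makes the neutrophil attractant leukotriene B4 and Ltc4s makes leukotriene C4. The cyclooxygenases Ptgs1 and Ptgs2 start the prostaglandin branch, in which Ptges makes prostaglandin E2, while Alox15 makes hydroxylated fatty acids that feed lipoxins and related mediators. Neutrophils are a main source of leukotriene B4.

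Library totals ran from 21598177 to 23187676 estimated counts. Ptpn6, in CPM (counts scaled to a common effective library size), ran from 181.7 to 314.2 in the 12 tested libraries with its deletion and from 490.0 to 706.9 in the 11 without. All 13 neutrophil markers on a list used here were detected, summing to 65870 to 153800 CPM per tested library. Markers of other cell types were present too and moved with several of the differences below, where their values are given. In bulk libraries, fewer cells of a type and less RNA per cell cannot be told apart.

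Per kilobase of each gene's principal transcript, the 9 genes covered more than 3 orders of magnitude. Alox5ap led with a mean of 1108 CPM per kilobase over the 23 libraries, followed by Alox5 at 197.5 and Lta4h at 115.1. Ptgs1 was next at 23.9, then Alox15 at 7.83 and Pla2g4a at 6.17. Ptges at 1.99, Ptgs2 at 0.999 and Ltc4s at 0.694 CPM per kilobase were lowest. The leukotriene B4 branch (Alox5ap, Alox5, Lta4h) therefore held the 3 highest levels and the leukotriene C4 synthase the lowest. Only the steps from Alox5ap to Alox5 and from Lta4h to Ptgs1 separated every library of the higher gene from every library of the lower. For each other pair of neighbours the library ranges overlapped: Alox5 ran from 143.7 to 242.6 CPM per kilobase and Lta4h from 58.9 to 203.9. Using all annotated exons as the length gave the same order of means, with Lta4h at 38.3 CPM per kilobase.

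**Figure D1:**
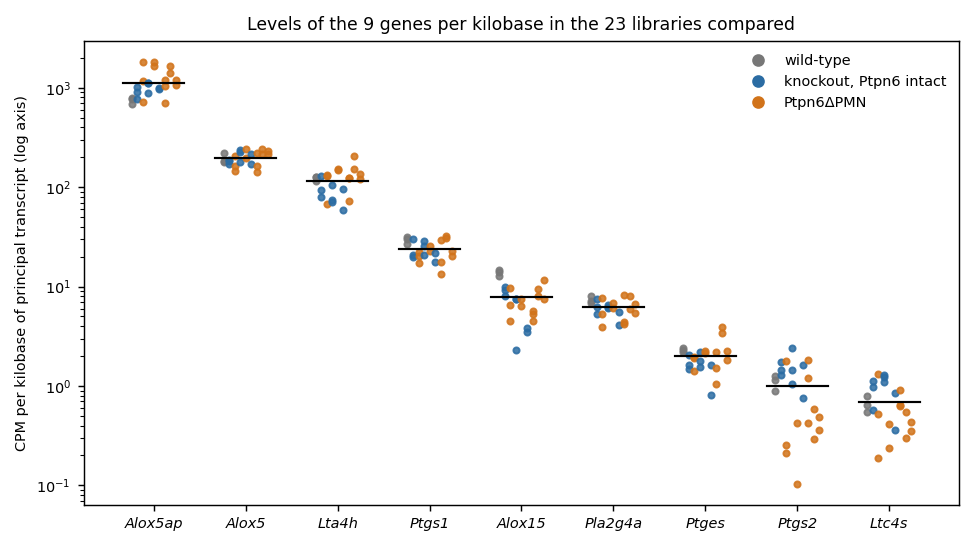
Level of each gene in CPM per kilobase of its principal transcript (log axis), 1 point per library for the 23 libraries compared, with the mean as a bar. Alox5ap, Alox5 and Lta4h stood highest, with means of 1108, 197.5 and 115.1 CPM per kilobase, and the points of Ptgs2 were the most scattered.

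Within genes, the spread over the 23 libraries also differed, though far less than the levels did between genes. Alox5 had the narrowest range, 405.4 to 684.3 CPM, a ratio of 1.69. Ptgs2 had the widest, 0.463 to 10.75 CPM, a ratio of 23.2. Ltc4s, at 3 to 22 counts per library, varied 6.90-fold, Alox15 6.41-fold and Ptges 4.78-fold. The Ltc4s range rests on few counts.

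**Figure D2:**
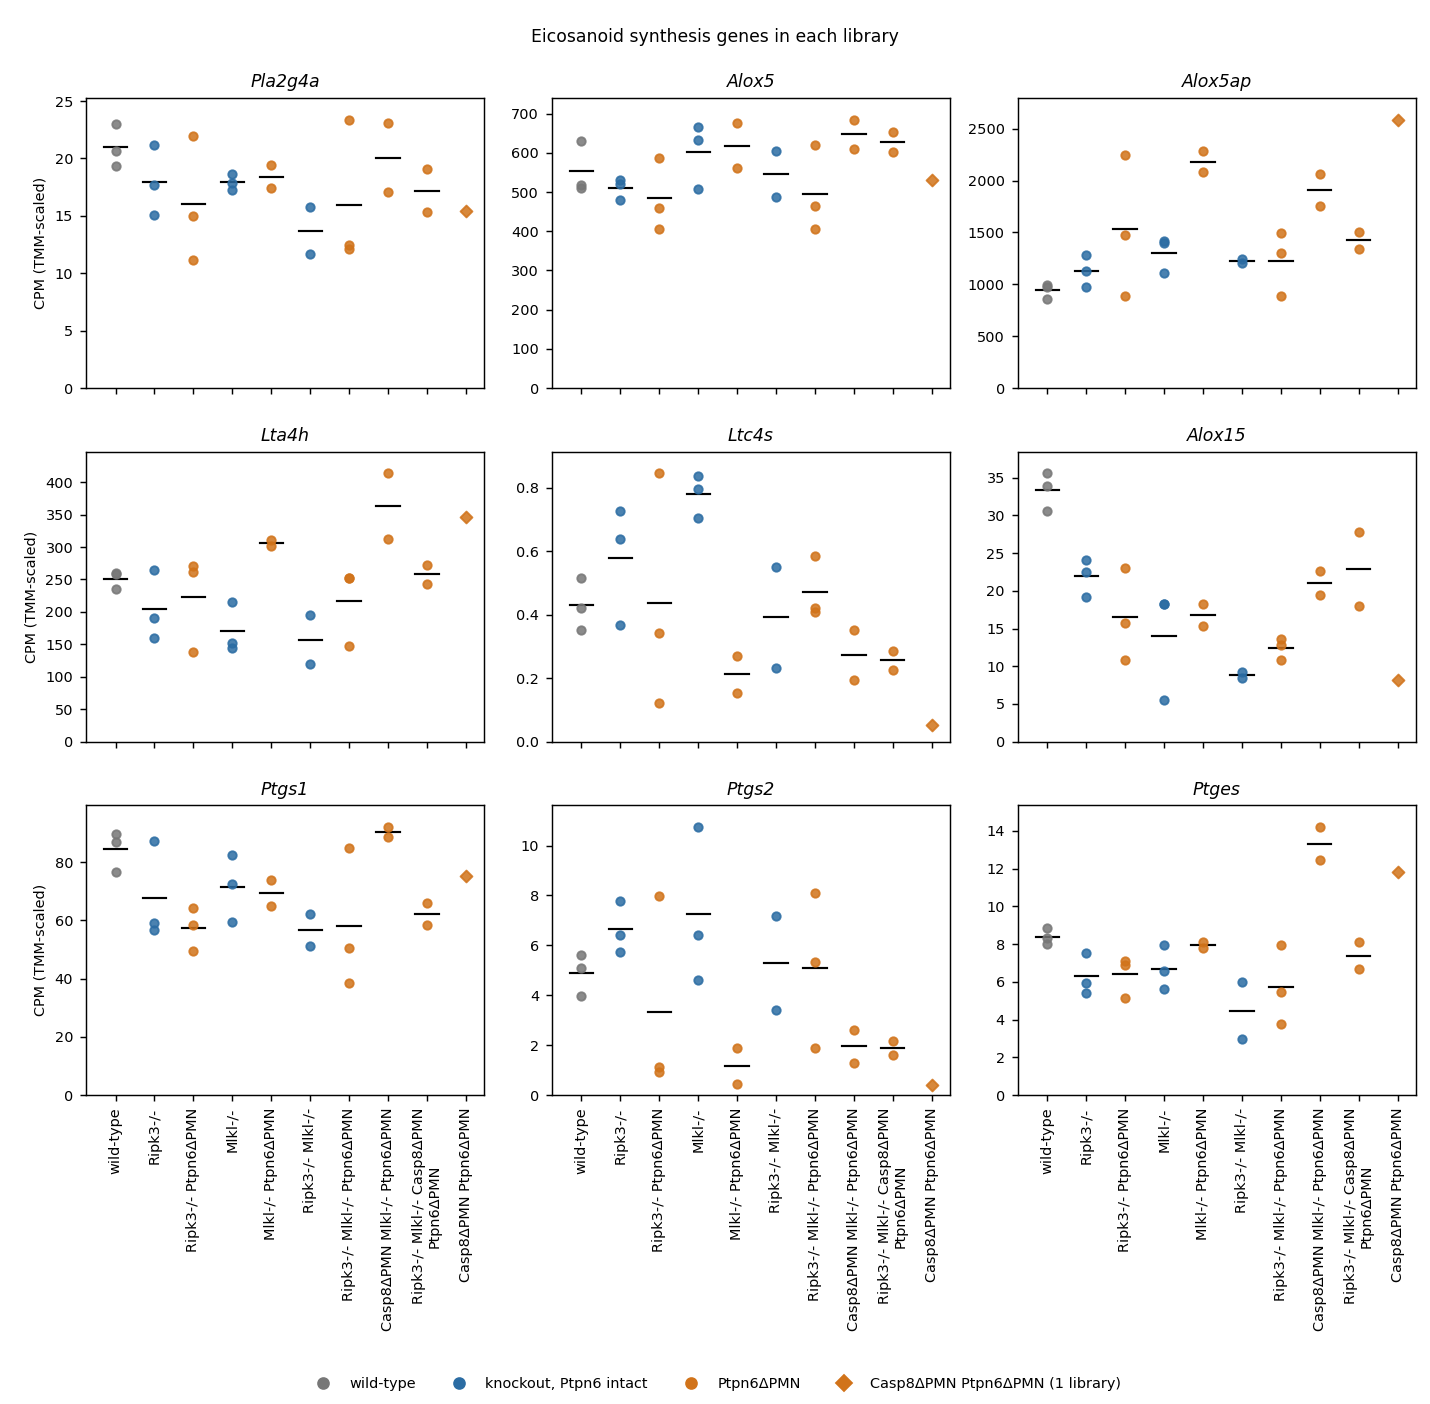
CPM of each gene in every assigned library (points), by group, with group means as bars on a linear axis from 0. Alox15 was higher in the 3 wild-type libraries (30.6 to 35.6 CPM) than in every other library, and Ptgs2 was low in 2 of the 3 Ripk3-/- Ptpn6ΔPMN libraries and in both Mlkl-/- Ptpn6ΔPMN libraries.

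Among the 9 genes, 1 passed an adjusted p of 0.05 in 1 comparison: Alox15 was lower in Ripk3-/- Mlkl-/- than in wild-type. No gene of the 9 passed the test in the other 13 comparisons with edgeR's quasi-likelihood test. For Ptpn6 deletion, 0.0185% of all 16206 genes were called in Ripk3-/-, 1.51% in Mlkl-/-, 0.00617% in Ripk3-/- Mlkl-/-, and 1.55% when the 3 backgrounds were averaged. For the knockouts against wild-type, the shares were 0.228% for Ripk3-/-, 1.16% for Mlkl-/- and 1.04% for Ripk3-/- Mlkl-/-. Adding the Casp8 deletion called 0% of genes in either background, and the difference between the backgrounds called 0.00617%. Loss of Ripk3 on top of Mlkl-/- Ptpn6ΔPMN called 0.0185%, loss of Mlkl on top of Ripk3-/- Ptpn6ΔPMN called 0%, the difference of the Ptpn6 effect between backgrounds 0%, and the test of any difference among the 9 groups 1.58%. With so few calls among all genes, 0 of 9 is close to the background in each of those 13 comparisons. Ptpn6 itself was not called for its deletion in Ripk3-/- Mlkl-/- (log2 change -1.01, SE 0.17, edgeR adjusted p = 0.0838), although the groups did not overlap. The absence of other calls there therefore says little. With 2 or 3 libraries per group, groups can fail to overlap by the chance order of libraries. The share of all genes that did so was not counted, so lack of overlap is given here as description only.

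At an unadjusted p below 0.05 the 9 genes gave 4 for Ptpn6 deletion in Mlkl-/-, 3 for the averaged deletion, 2 for Mlkl-/- against wild-type and 5 for Ripk3-/- Mlkl-/- against wild-type. The same threshold took 17.5%, 15.5%, 19.4% and 14.3% of all genes. It took 2 genes for the loss of Ripk3 in Mlkl-/- Ptpn6ΔPMN (26.1% of all genes), 1 for each Casp8 comparison (9.35% and 4.63%) and 5 for any difference among the groups (22%). In the remaining 6 comparisons it took none of the 9, against 2.97% to 9.29% of all genes. DESeq2 in place of edgeR called 1 of the 9 for Ptpn6 deletion in Mlkl-/-, 1 for Mlkl-/- against wild-type, 1 for the loss of Ripk3 in Mlkl-/- Ptpn6ΔPMN and 4 for any difference among the groups. For all genes, DESeq2 called 92 for the Casp8 deletion in Mlkl-/- Ptpn6ΔPMN, 1 in Ripk3-/- Mlkl-/- Ptpn6ΔPMN, 2 for the loss of Mlkl and 18 for the difference between backgrounds. In those 4 comparisons edgeR called none, and 1515, 750, 482 and 1053 genes had an unadjusted p below 0.05.

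**Figure D3:**
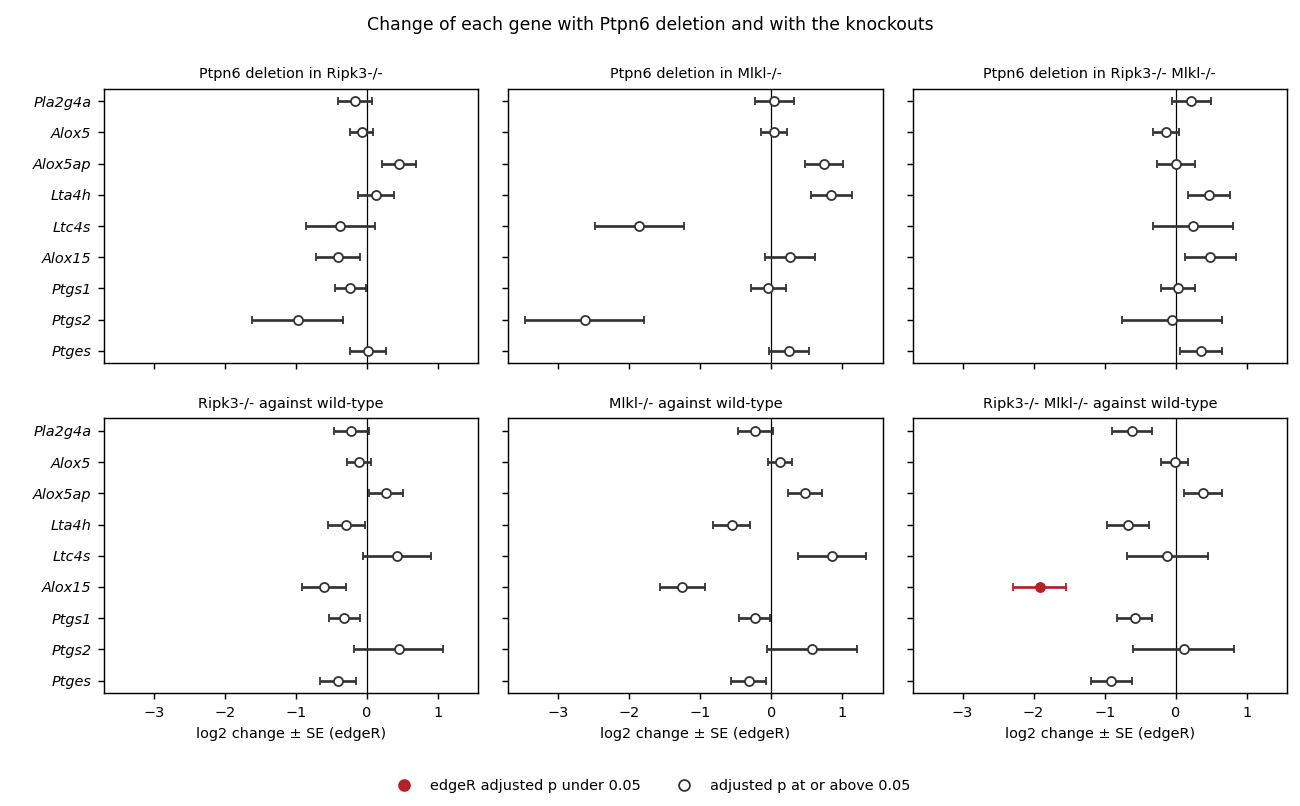
log2 change of each gene with its SE (edgeR) for Ptpn6 deletion in 3 backgrounds (top) and for the 3 knockouts against wild-type (bottom), which share the same wild-type libraries. Alox15 in Ripk3-/- Mlkl-/- (log2 change -1.91) was the only call, and Ptgs2 (-2.63) and Ltc4s (-1.86) in Mlkl-/- lay farthest below 0 without passing.

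Pla2g4a, on chromosome 1 (GRCm38, 149829618 to 149961290, minus strand), opens the pathway. Its level was 21.0 ± 1.85 CPM (SD, n = 3) in wild-type and between 13.7 and 20.1 in the means of the other 8 tested groups. Its lowest group mean was in Ripk3-/- Mlkl-/-, at 15.8 and 11.7 CPM in the 2 libraries, below the wild-type libraries at 19.3, 22.96 and 20.6. That difference did not pass (log2 change -0.61, SE 0.28, edgeR adjusted p = 0.324). With Ptpn6 deletion the log2 change was -0.17 in Ripk3-/-, 0.04 in Mlkl-/- and 0.22 in Ripk3-/- Mlkl-/-, each smaller than its SE of 0.25, 0.27 and 0.28. Within Ripk3-/- Mlkl-/- Ptpn6ΔPMN, 1 library stood at 23.4 CPM and the others at 12.5 and 12.1.

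Alox5 (chromosome 6, 116410077 to 116461178, minus strand) was the steadiest of the 9. It was at 518.0, 629.6 and 510.3 CPM in wild-type, and group means elsewhere ran from 483.9 in Ripk3-/- Ptpn6ΔPMN to 647.3 in Casp8ΔPMN Mlkl-/- Ptpn6ΔPMN. Ptpn6 deletion moved it by a log2 change of -0.08, 0.04 and -0.14 in Ripk3-/-, Mlkl-/- and Ripk3-/- Mlkl-/-, with an SE of 0.16, 0.18 and 0.18. In none of the 14 comparisons did it pass.

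Its partner Alox5ap (chromosome 5, 149264767 to 149288153, plus strand), the membrane protein that presents arachidonic acid to 5-lipoxygenase, varied more. In wild-type it was at 855.9, 969.6 and 997.0 CPM. In Mlkl-/- it was at 1107, 1413 and 1397 CPM, and in Mlkl-/- Ptpn6ΔPMN at 2078 and 2283, with no overlap between the groups. The difference was a log2 change of 0.74 (SE 0.26), or 1.67-fold, with an edgeR adjusted p of 0.153. In Ripk3-/- the levels were 974.0, 1279 and 1127 CPM, and in Ripk3-/- Ptpn6ΔPMN 892.0, 2249 and 1471. The last group straddled the first: 1 of its libraries lay below all Ripk3-/- libraries and the other 2 above all of them (log2 change 0.45, SE 0.24, edgeR adjusted p = 0.973). The 2 libraries of Ripk3-/- Mlkl-/- were at 1241 and 1207 CPM, and with Ptpn6ΔPMN the 3 libraries were at 886.9, 1302 and 1494, so the log2 change was 0.00 (SE 0.27). Averaged over the backgrounds the log2 change was 0.40 (SE 0.15, edgeR adjusted p = 0.188), and a difference between backgrounds was not called (edgeR adjusted p = 0.794).

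Alox5ap was also compared where Ripk3 was removed from Mlkl-/- Ptpn6ΔPMN. It was lower without Ripk3 by a log2 change of -0.83 (SE 0.26) and the groups did not overlap, but the edgeR adjusted p was 0.0849. This comparison depended on the method: DESeq2 gave an adjusted p of 0.0286. Leaving out Ripk3-/- Mlkl-/- Ptpn6ΔPMN replicate 3 gave a log2 change of -0.995 and an edgeR adjusted p of 0.0154, and that library alone moved the number of all genes called from 3 to 4861. Cell type markers moved in this comparison: 0 of 13 neutrophil markers had a log2 change above 0 (median -0.68), against 11 of 11 for B cells (median 1.45), 10 of 10 for T and NK cells (median 1.19) and 11 of 11 cell cycle genes (median 0.74), with none called. B cell markers summed to 417.5 and 462.7 CPM in Mlkl-/- Ptpn6ΔPMN and to 1873, 1335 and, in replicate 3, 421.3 CPM in Ripk3-/- Mlkl-/- Ptpn6ΔPMN. Neutrophil markers summed to 153800 and 138100 CPM and to 67280, 89570 and, in replicate 3, 123900 CPM. The part of these markers in the Alox5ap difference was not tested. The mean level in Casp8ΔPMN Mlkl-/- Ptpn6ΔPMN was 1910 ± 215.6 CPM (n = 2), against 2181 ± 145.3 (n = 2) in Mlkl-/- Ptpn6ΔPMN. An exon of the predicted gene Gm19719 overlaps Alox5ap on the opposite strand, and reads of the 2 cannot be told apart where strand was not used in counting, which is not given in the sources used here.

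Neutrophil markers moved with Alox5ap in the Mlkl-/- background. Their sum was 89370 to 104500 CPM in Mlkl-/- and 138100 to 153800 CPM in Mlkl-/- Ptpn6ΔPMN, and 12 of 13 markers had a log2 change above 0, with a median of 0.56 and none called. Monocyte markers summed to 1039 to 1077 CPM and to 1507 to 1542 CPM in the same groups, with 6 of 8 above 0. Macrophage markers summed to 87.7 to 230.3 CPM and to 64.8 to 107.4 CPM, which overlap, with 0 of 9 above 0 and a median log2 change of -1.24. B cell markers summed to 617.0 to 976.9 CPM and to 417.5 to 462.7 CPM, with 1 of 11 above 0. No marker of these lists was called. The part of these cell type markers in the changes of the 9 genes was not tested.

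Lta4h (chromosome 10, 93453411 to 93484875, plus strand), the hydrolase that makes leukotriene B4, was at 257.7, 259.7 and 235.1 CPM in wild-type. It was at 214.5, 152.4 and 144.2 CPM in Mlkl-/- and at 301.2 and 311.0 CPM in Mlkl-/- Ptpn6ΔPMN, again with no overlap. The log2 change was 0.84 (SE 0.29), or 1.80-fold, with an edgeR adjusted p of 0.13. A fit of these groups alone gave 0.82 and an edgeR adjusted p of 0.0392, so the call rests on which libraries share the estimate of spread. In Ripk3-/-, Lta4h stood at 265.3, 189.9 and 159.9 CPM, and with the Ptpn6 deletion at 138.4, 270.5 and 261.8. It stood at 194.5 and 119.4 CPM in Ripk3-/- Mlkl-/-, and with the deletion at 147.7, 251.8 and 252.2. These groups overlapped in both backgrounds, with log2 changes of 0.12 (SE 0.26) and 0.47 (SE 0.29). The averaged log2 change was 0.48 (SE 0.16, edgeR adjusted p = 0.137).

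The highest Lta4h levels of the 23 libraries were in Casp8ΔPMN Mlkl-/- Ptpn6ΔPMN, at 311.6 and 413.7 CPM, and the lowest was 119.4 CPM in Ripk3-/- Mlkl-/-. Against wild-type, Lta4h was lower in Mlkl-/- (log2 change -0.56, SE 0.26, edgeR adjusted p = 0.246) and in Ripk3-/- Mlkl-/- by -0.68 (SE 0.29, edgeR adjusted p = 0.301). Neither passed. No library of either knockout reached the lowest wild-type library, which is description only.

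Ltc4s (chromosome 11, 50236461 to 50238616, minus strand), which makes leukotriene C4, was close to the limit of detection. Wild-type libraries had 9, 10 and 13 counts. In Mlkl-/- there were 19, 18 and 15 counts and in Mlkl-/- Ptpn6ΔPMN 5 and 3, or 0.706 to 0.838 CPM against 0.154 to 0.270 CPM. The groups did not overlap and the log2 change was -1.86 (SE 0.63), with an edgeR adjusted p of 0.128. In Ripk3-/- Ptpn6ΔPMN the 3 libraries had 22, 7 and 3 counts, which include the highest and the lowest CPM of the 23, while Ripk3-/- had 9, 15 and 17. At this depth no difference in the other backgrounds was detectable, with log2 changes of -0.38 (SE 0.48) and 0.24 (SE 0.57). An exon of Gm26542 overlaps Ltc4s on the opposite strand, with the same limit as for Alox5ap.

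Alox15 (chromosome 11, 70344152 to 70352031, minus strand), the 12/15-lipoxygenase of the mouse, gave the only call. In wild-type it was at 30.6, 33.9 and 35.6 CPM. In Ripk3-/- Mlkl-/- the 2 libraries were at 9.20 and 8.49 CPM. The log2 change was -1.91 (SE 0.38), a level 0.265 of wild-type, with an edgeR adjusted p of 0.0192. Every one of the 5 fits that left out a library of these groups kept the size (log2 change -1.97 to -1.86) but lost the call, with edgeR adjusted p values of 0.0553 to 0.177. DESeq2 size factors, no filter, the replicate block, DESeq2 tests and a fit of these groups alone kept the call, with adjusted p values of 6.35e-05 to 0.0267.

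The single knockouts lay between. Alox15 was at 22.5, 19.2 and 24.03 CPM in Ripk3-/- (log2 change -0.61, SE 0.31, edgeR adjusted p = 0.769). A fit of only wild-type and Ripk3-/- gave -0.63 and an edgeR adjusted p of 0.0255. In Mlkl-/- it was at 18.2, 18.2 and 5.56 CPM (log2 change -1.25, SE 0.32, edgeR adjusted p = 0.0569), with 1 library far below the others. The Mlkl-/- difference passed with DESeq2 (adjusted p = 0.00669) and with no filter on low counts (edgeR adjusted p = 0.0251). It also passed without Mlkl-/- replicate 1 (log2 change -1.49, edgeR adjusted p = 0.0351). The highest level outside wild-type was 27.8 CPM, in Ripk3-/- Mlkl-/- Casp8ΔPMN Ptpn6ΔPMN, so that each wild-type library exceeded all 20 other tested libraries. These 3 comparisons share the wild-type libraries.

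Ptpn6 deletion gave Alox15 a log2 change of -0.41 (SE 0.31) in Ripk3-/-, 0.26 (SE 0.35) in Mlkl-/- and 0.49 (SE 0.36) in Ripk3-/- Mlkl-/-, none of which passed. Only in Ripk3-/- Mlkl-/- did the groups not overlap. In Ripk3-/- Mlkl-/- Ptpn6ΔPMN the libraries stood at 13.6, 12.8 and 10.81 CPM and with the Casp8 deletion at 18.0 and 27.8, which gave a log2 change of 0.88 (SE 0.35) and an edgeR adjusted p of 0.864. Estimated counts of Alox15 were off whole numbers by more than 0.01 in 19 of 25 libraries, as arises where reads are shared between similar transcripts.

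Markers of basophils and mast cells moved with Alox15. The list holds 9 genes, all detected, and summed to 1264 to 1346 CPM in wild-type and 1179 to 1186 CPM in Ripk3-/- Mlkl-/-. Hdc, which neutrophils also express, had a mean of 594.7 CPM in wild-type and 1016 CPM in Ripk3-/- Mlkl-/-. It was set aside after the values were seen. Without it, the 8 others summed to 740.9, 655.3 and 724.1 CPM in wild-type and to 192.6 and 141.0 CPM in Ripk3-/- Mlkl-/-. In that comparison 1 of the 9 listed genes, Hdc, lay above 0, and the median of the 9 was -1.75. That all 8 others lay below 0 thus followed from leaving Hdc out. Their median was -1.83, and 2 were called. Those were Gata2, a transcription factor of these cells (log2 change -1.91, SE 0.41, edgeR adjusted p = 0.0298), and Ms4a2, the beta chain of their IgE receptor (-1.75, SE 0.41, edgeR adjusted p = 0.0463). In Mlkl-/- the summed level was 501.5, 501.4 and 93.3 CPM, low in the same library in which Alox15 was low. In Ripk3-/- Mlkl-/- against wild-type, the 11 erythroid and 9 macrophage markers also all lay above 0 (median log2 changes 0.87 and 0.83, none called). Of the azurophil granule genes 1 of 7 lay above 0 (median -1.99, none called) and of the cell cycle genes 1 of 11 (median -0.72, none called). In the monocyte list 2 of 8 lay above 0 (median -0.10) and Csf1r, the receptor of colony stimulating factor 1, was called (log2 change 0.76, edgeR adjusted p = 0.0261). In the megakaryocyte and platelet list 4 of 10 lay above 0 (median -0.10) and Itga2b, a platelet integrin, was called (log2 change -1.40, edgeR adjusted p = 0.0213).

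Over the 24 assigned libraries, Alox15 and the summed level of the 8 markers had a Pearson r of 0.95 and a Spearman rho of 0.97 on log2(CPM + 1). For single markers, r with Alox15 was 0.98 for Gata2, 0.94 for the basophil protease Mcpt8, 0.93 for Prss34 and 0.97 for Ms4a2. It was -0.37 for Hdc and 0.22 for Gzmb. For the eosinophil granule genes Epx and Prg2 it was 0.30 and 0.35, and r was not computed for the rest of that list. All libraries enter each value with their own depth and scaling, so these correlations describe the set and were not tested. In Mlkl-/- against wild-type, 2 of 9 eosinophil markers lay above 0 (median log2 change -1.74, none called). Their sums were 58.8 to 82.5 CPM in Mlkl-/- and 88.5 to 106.2 CPM in wild-type. In Ripk3-/- Mlkl-/- against wild-type 3 of 9 lay above 0 (median -0.12, none called), with sums of 132.7 and 39.0 CPM. Whether the lower Alox15 in Ripk3-/- Mlkl-/- is as large apart from these markers was not tested.

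**Figure D4:**
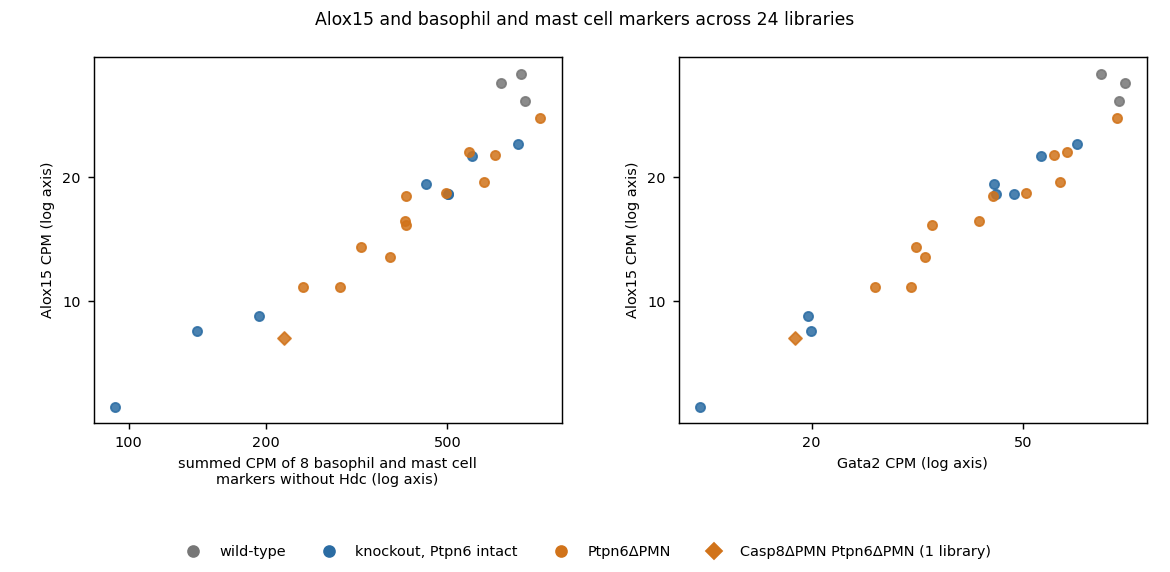
Alox15 CPM against the summed CPM of 8 basophil and mast cell markers without Hdc (left) and against Gata2 CPM (right), both log axes, 1 point per library for 24 libraries. The points follow 1 line (r of 0.95 and 0.98), with wild-type libraries at the top and Ripk3-/- Mlkl-/- libraries among the lowest.

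Ptgs1 (chromosome 2, 36230426 to 36252272, plus strand), the constitutive cyclooxygenase, was at 89.7, 86.9 and 76.7 CPM in wild-type. Group means of the other groups ran from 56.7 in Ripk3-/- Mlkl-/- to 90.5 in Casp8ΔPMN Mlkl-/- Ptpn6ΔPMN. Ptpn6 deletion gave log2 changes of -0.24, -0.05 and 0.03 in Ripk3-/-, Mlkl-/- and Ripk3-/- Mlkl-/-, with an SE of 0.22, 0.24 and 0.24. Both Ripk3-/- Mlkl-/- libraries, at 51.2 and 62.2 CPM, were below all wild-type libraries, and the log2 change was -0.58 (SE 0.25, edgeR adjusted p = 0.294). A fit of these 5 libraries alone gave -0.58 and an edgeR adjusted p of 0.0322. Markers of megakaryocytes and platelets, cells that also express Ptgs1, summed to 44.1, 39.0 and 40.3 CPM in wild-type and to 20.4 and 25.1 CPM in Ripk3-/- Mlkl-/-, with no overlap. Their part in the Ptgs1 difference was not tested. An exon of Gm43621 overlaps Ptgs1 on the opposite strand.

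Ptgs2 (chromosome 1, 150100031 to 150108227, plus strand), the inducible cyclooxygenase, showed the largest differences between libraries of the 9 genes. Wild-type libraries were at 5.60, 3.95 and 5.09 CPM. In Mlkl-/- it stood at 6.41, 10.75 and 4.61 CPM and in Mlkl-/- Ptpn6ΔPMN at 1.89 and 0.463 CPM, so both libraries with the deletion lay below all those without. The log2 change was -2.63 (SE 0.83), a level 0.162 of the control, with an edgeR adjusted p of 0.106. DESeq2 gave -2.60 and an adjusted p of 0.0336, and a fit of these libraries alone gave an edgeR adjusted p of 0.0322.

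In Ripk3-/- the level of Ptgs2 was 6.44, 7.78 and 5.73 CPM. In Ripk3-/- Ptpn6ΔPMN it was 7.96 CPM in replicate 1 but 1.12 and 0.941 CPM in the other 2 libraries. The groups therefore overlapped (log2 change -0.97, SE 0.64, edgeR adjusted p = 1). Without replicate 1 the log2 change was -2.69 and the edgeR adjusted p 0.0415. That library, which had 207 counts of Ptgs2, also had the most Ptpn6 of its group (294.9 CPM against 186.9 and 201.2), the least Alox5ap (892.0 CPM) and the least Lta4h (138.4 CPM). Its neutrophil markers summed to 65870 CPM, the lowest of the 23 libraries, against 128300 and 91720 in its group. Its B cell markers summed to 1325 CPM, against 653.0 and 886.2. The part of these markers in the effect of that library was not tested.

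Ripk3-/- Mlkl-/- had 7.16 and 3.40 CPM of Ptgs2 and Ripk3-/- Mlkl-/- Ptpn6ΔPMN 5.33, 1.88 and 8.08 CPM, which overlap (log2 change -0.05, SE 0.71). Both groups with the added Casp8 deletion were low, at 2.62 and 1.31 CPM in Casp8ΔPMN Mlkl-/- Ptpn6ΔPMN and at 2.18 and 1.61 CPM in Ripk3-/- Mlkl-/- Casp8ΔPMN Ptpn6ΔPMN. The Casp8 differences did not pass (log2 change 0.74, SE 0.90, and -1.42, SE 0.77, edgeR adjusted p = 0.856 and 0.864). Of the 12 tested libraries with the Ptpn6 deletion, the median was 1.89 CPM and the range 0.463 to 8.08, and of the 11 without it 5.73 and 3.40 to 10.75. Averaged over the 3 backgrounds the log2 change was -1.22 (SE 0.42, edgeR adjusted p = 0.142), and the backgrounds were not called as different (edgeR adjusted p = 0.78).

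Leaving out Ripk3-/- Ptpn6ΔPMN replicate 1 changed the averaged result for 4 of the 9 genes. Ptgs2 then had a log2 change of -1.79 (edgeR adjusted p = 0.00325) and Ltc4s of -0.98 (edgeR adjusted p = 0.0476). Alox5ap had 0.49 (edgeR adjusted p = 0.0201) and Lta4h 0.56 (edgeR adjusted p = 0.0249). The number of all genes called for the averaged deletion rose from 251 to 1037 in the same fit, so the change was not limited to the eicosanoid genes.

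The start of Ptgs2 is printed because this gene varied most, and those of Lta4h and Ptges because the pair varied together (Pearson r = 0.87 over 24 libraries). They are the 250 bases before the annotated start in RefSeq on GRCm38.p6, 5′ to 3′ on the strand of the gene: chr1:150099781-150100030 (plus) for Ptgs2, chr10:93453146-93453395 (plus) for Lta4h and chr2:30903298-30903547 (minus) for Ptges. The Ptges window lies inside the span that GENCODE gives the gene (30889471 to 30929863, minus strand). The RefSeq start used here is therefore not the outer end of that span. Windows of 7 of the 9 genes were matched in the RefSeq table. Capitals mark matches on either strand to 5 motifs that were searched: the E-box CACGTG, the core of the cAMP response element TGACG, the C/EBP core TTNNGNAA, the GC box GGGCGG and the PU.1 core GAGGAAG.
Ptgs2: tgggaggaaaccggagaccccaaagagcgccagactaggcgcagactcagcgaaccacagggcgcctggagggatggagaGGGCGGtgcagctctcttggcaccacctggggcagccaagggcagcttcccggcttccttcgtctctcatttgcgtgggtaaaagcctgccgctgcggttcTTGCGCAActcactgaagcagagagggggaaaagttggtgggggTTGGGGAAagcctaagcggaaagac
Lta4h: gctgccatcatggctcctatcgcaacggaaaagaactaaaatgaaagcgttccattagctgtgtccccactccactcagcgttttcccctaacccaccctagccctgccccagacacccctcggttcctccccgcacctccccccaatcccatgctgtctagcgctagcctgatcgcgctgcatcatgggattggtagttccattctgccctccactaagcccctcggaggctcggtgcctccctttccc
Ptges: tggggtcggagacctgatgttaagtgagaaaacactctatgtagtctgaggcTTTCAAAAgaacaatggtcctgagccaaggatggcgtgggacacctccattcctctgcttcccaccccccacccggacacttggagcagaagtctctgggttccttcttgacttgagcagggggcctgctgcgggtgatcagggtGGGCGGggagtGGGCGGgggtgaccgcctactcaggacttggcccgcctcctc
The Ptgs2 window holds 2 C/EBP cores, beginning 69 and 25 bases before the start, and 1 GC box at 170. The Ptges window holds 2 GC boxes, at 53 and 42 bases, and 1 C/EBP core at 198. The Lta4h window holds none of these letter strings. Of 27018 promoter windows of this length, 36.9% hold the C/EBP core, 32.9% the GC box, 17.9% the cAMP response core, 10.4% the PU.1 core and 6.05% the E-box, so these matches are common. The Ptgs2 window also lies over an exon of Ptgs2os, a noncoding gene on the opposite strand, which had at most 0.164 CPM in any library.

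A second noncoding gene near Ptgs2 was looked at after its values were seen. Ptgs2os2 (chromosome 1, 150159043 to 150164948, minus strand) lies 50816 bases beyond Ptgs2 and does not overlap it. In Mlkl-/- it was at 6.83, 9.82 and 8.19 CPM and in Mlkl-/- Ptpn6ΔPMN at 3.94 and 2.21 CPM (log2 change -1.43, SE 0.45, edgeR adjusted p = 0.106). In Ripk3-/- Ptpn6ΔPMN it was at 6.73, 2.20 and 1.92 CPM, high in the same library as Ptgs2. Over 24 libraries its Pearson r with Ptgs2 was 0.89 and its Spearman rho 0.84.

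Ptges (chromosome 2, 30889471 to 30929863, minus strand), the inducible prostaglandin E2 synthase, was at 8.34, 8.83 and 7.99 CPM in wild-type. In Ripk3-/- Mlkl-/- it was at 6.00 and 2.97 CPM, below every wild-type library (log2 change -0.91, SE 0.29, edgeR adjusted p = 0.148). Ptpn6 deletion gave log2 changes of 0.02, 0.25 and 0.35 in Ripk3-/-, Mlkl-/- and Ripk3-/- Mlkl-/-, with an SE of 0.25, 0.28 and 0.29. Its highest libraries were the 2 of Casp8ΔPMN Mlkl-/- Ptpn6ΔPMN, at 12.5 and 14.2 CPM, above 8.14 and 7.82 CPM in Mlkl-/- Ptpn6ΔPMN. That Casp8 difference measured 0.74 on the log2 scale (SE 0.31), with an edgeR adjusted p of 0.478. Ptges was at 3.79, 5.49 and 7.94 CPM in Ripk3-/- Mlkl-/- Ptpn6ΔPMN and with the Casp8 deletion at 6.68 and 8.10, which overlap.

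Across genes in Ripk3-/- Mlkl-/- against wild-type, 7 of the 9 had a log2 change below 0, and the median was -0.58 against -0.03 over all genes tested. The exceptions were Alox5ap (0.38, SE 0.27) and Ptgs2 (0.11, SE 0.71). For Ptpn6 deletion, the medians of the 9 were -0.17 in Ripk3-/-, 0.04 in Mlkl-/- and 0.22 in Ripk3-/- Mlkl-/-, and those of all genes 0.00, -0.04 and 0.03.

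**Figure D5:**
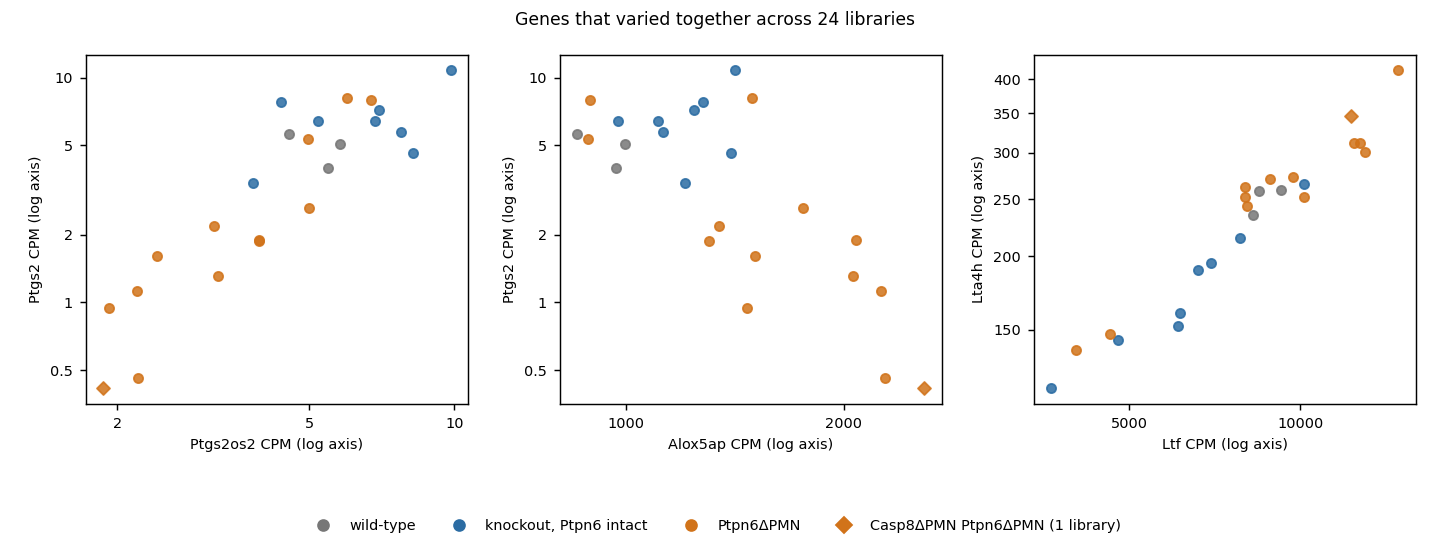
CPM of Ptgs2 against Ptgs2os2 (left) and against Alox5ap (middle), and of Lta4h against Ltf (right), log axes, 1 point per library for 24 libraries. Ptgs2 was high where Ptgs2os2 was high (r = 0.89) and low where Alox5ap was high (r = -0.74), and Lta4h was high where Ltf was high (r = 0.97).

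The 9 genes did not vary as 1 block. On log2(CPM + 1) over 24 libraries, Lta4h and Ptges had a Pearson r of 0.87, Ltc4s and Ptgs2 of 0.79, Ptgs1 and Ptges of 0.69 and Pla2g4a and Alox5 of 0.68. Alox5ap and Ptgs2 ran opposite (r = -0.74), as did Lta4h and Ltc4s (r = -0.73). Alox15 had an r of 0.50 with Pla2g4a and of 0.35 or less with the others. These values describe libraries that share scaling, and they were not tested.

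For each of the 9, the 3 genes with the highest r were noted among all genes tested. Lta4h was most like Prom1 (0.98), Mlst8 (0.97) and Ltf (0.97), the last being lactoferrin of the specific granules. Ptges was most like Ffar2 (0.95), Camp (0.93), the cathelicidin of the same granules, and Acad8 (0.91). Alox5ap was most like Oaz2 (0.98), Gpi1 (0.97) and Sgk3 (0.96), and Alox5 like Gga1, Sept9 and Myo1f (0.95, 0.95 and 0.93). Ptgs2 was most like Olfr1033 (0.95), 5033421B08Rik (0.94) and Zbtb8b (0.94), and Olfr1033 was also among the 3 for Ltc4s (0.87). For Alox15 they were Cdh1, Gata2 and Cyp11a1 (0.98, 0.98 and 0.98). Pla2g4a and Ptgs1 had no such close match, the highest r being 0.78 with Rbpj and 0.81 with 9830166K06Rik.

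Ltf was lower in the libraries in which Lta4h was low. In Mlkl-/- it stood at 7827, 6087 and 4783 CPM and in Mlkl-/- Ptpn6ΔPMN at 13020 and 12440 CPM, in Ripk3-/- Mlkl-/- at 6958 and 3636 CPM and in wild-type at 8460, 9272 and 8265 CPM. The part of granule gene levels in the Lta4h and Ptges differences was not tested.

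Around the 9 genes, 75 others of the pathway were listed by role, of which 65 passed the filter. In the 14 comparisons, 3 of them (4.62%) were called in at least 1, against 662 of all 16206 genes (4.08%), so the share was close to that of all genes. The phospholipases (11 of 14 tested), arachidonate re-esterification enzymes (9 of 9), lipoxygenases and 5-lipoxygenase partners (5 of 7), prostanoid synthases (8 of 9) and genes of inactivation and transport (11 of 12) had no call. Their most abundant members were Pla2g7, the plasma platelet-activating factor hydrolase, at a mean of 462.7 CPM, and Mboat7, an acyltransferase for arachidonate, at 403.6 CPM. Among the others they were Cotl1, which binds 5-lipoxygenase, at 1236 CPM, Ptges3, a cytosolic prostaglandin E synthase, at 40.7 CPM, and Cyp4f18, which degrades leukotriene B4, at 535.1 CPM.

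Ggt1, a gamma-glutamyl transferase that converts leukotriene C4 to D4, was the 1 called gene of leukotriene processing (6 of 7 tested). In Mlkl-/- it stood at 18.3, 23.1 and 27.1 CPM and in Mlkl-/- Ptpn6ΔPMN at 85.2 and 200.2 CPM, with a log2 change of 2.64 (SE 0.54) and an edgeR adjusted p of 0.0292. In Ripk3-/- it was at 15.4, 21.9 and 21.3 CPM and with the Ptpn6 deletion at 23.7, 171.8 and 68.8 (log2 change 2.17, SE 0.50, edgeR adjusted p = 0.233). This difference passed with DESeq2 (adjusted p = 0.019), with no filter (edgeR adjusted p = 0.0304) and without Ripk3-/- Ptpn6ΔPMN replicate 1 (log2 change 2.62, edgeR adjusted p = 0.00492). Ggt1 was at 21.8 and 21.7 CPM in Ripk3-/- Mlkl-/- and with the deletion at 18.6, 19.4 and 46.0 (log2 change 0.36, SE 0.55). With Ptpn6 deletion, Ggt1 was thus called higher in Mlkl-/-, a call that also depended on single libraries, as given below. In Ripk3-/- a call depended on the method and on 1 library. That library, in which Ptgs2 was high, was also the one in which Ggt1 was near its controls. The averaged log2 change was 1.73 (SE 0.31, edgeR adjusted p = 0.0115). The call in Mlkl-/- was lost in 4 of 5 fits without 1 library, and without Mlkl-/- Ptpn6ΔPMN replicate 2 the log2 change was 1.90 (edgeR adjusted p = 0.448). The averaged call was lost without that library (edgeR adjusted p = 0.0883), without Ripk3-/- Mlkl-/- replicate 3 (edgeR adjusted p = 0.0507) and in a fit of only the groups concerned (edgeR adjusted p = 0.0614).

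Among receptors (15 of 17 tested), 2 were called, both higher in Mlkl-/- than in wild-type. Ptafr, the receptor of platelet-activating factor, was at 140.8, 161.0 and 158.3 CPM in wild-type and at 207.3, 278.8 and 252.9 CPM in Mlkl-/- (log2 change 0.68, SE 0.15, edgeR adjusted p = 0.0291). Ptger2, a prostaglandin E2 receptor, was at 24.1, 28.2 and 22.9 CPM and at 31.5, 39.5 and 45.1 CPM (log2 change 0.63, SE 0.14, edgeR adjusted p = 0.0289). The groups did not overlap for either gene. In the same comparison 9 of 9 macrophage markers had a log2 change above 0 (median 0.80, none called), 0 of 11 cell cycle genes (median -1.10, none called), 1 of 7 azurophil granule genes (median -1.52, none called) and 0 of 10 T and NK cell markers (median -0.59, none called). Of the eosinophil markers 2 of 9 lay above 0 (median -1.74), of the basophil and mast cell markers 1 of 9 (-0.93) and of the B cell markers 1 of 11 (-0.38). Also above 0 were 8 of 10 megakaryocyte and platelet markers (median 0.39), 9 of 11 erythroid markers (0.27) and 7 of 13 neutrophil markers (0.19). None of these markers was called. Macrophage markers summed to 113.5, 78.2 and 107.4 CPM in wild-type and to 87.7, 190.1 and 230.3 CPM in Mlkl-/-. Of the monocyte markers 2 of 8 lay above 0 (median -0.45), and Csf1r was called (log2 change 0.74, edgeR adjusted p = 0.0166). The part of these markers in the Ptafr and Ptger2 differences was not tested. Leaving out 1 library lost the Ptafr call in 5 of 6 fits and the Ptger2 call in 5 of 6. The rise was not particular to Mlkl-/-. Every library of Ripk3-/- and of Ripk3-/- Mlkl-/- also exceeded all wild-type libraries for both genes. Ptafr had means of 211.0 and 245.0 CPM in these groups and Ptger2 of 33.7 and 36.2 CPM, not called in the fit of all 23 libraries. With DESeq2 both passed in Ripk3-/- Mlkl-/- (adjusted p = 0.00965 for Ptafr and 0.0439 for Ptger2). These comparisons share the wild-type libraries. The receptor of leukotriene B4, Ltb4r1, had a mean of 223.9 CPM and Fpr2, a lipoxin receptor, 865.2 CPM, neither called in any comparison.

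The single Casp8ΔPMN Ptpn6ΔPMN library, from the only mouse sample labelled as inflamed and the only one with the Ptpn6 deletion and intact Ripk3 and Mlkl, has no replicate and no test. Its Ptgs2 was at 8 counts or 0.416 CPM (95% exact Poisson interval 0.179 to 0.819, for counting error only), below all 23 tested libraries. Its Ltc4s was at 1 count, also below all 23. Its Alox15 was at 8.16 CPM, with 1 of the 23 below it, and its summed basophil and mast cell markers without Hdc were at 219.2 CPM. Pla2g4a at 15.4, Alox5 at 529.4 and Ptgs1 at 75.3 CPM lay within the range of the 23.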

How the data were processed

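The deposited table gives estimated counts per gene symbol for 25 bulk libraries read as 100 bp pairs, per the labels' protocols. The submitters' processing notes name Salmon 0.14.1, GRCm38.p6 and DESeq2. These expected counts from the authors are scaled to neither depth nor length, and were rounded to whole numbers here. Every column was matched to 1 sample by its title. How transcripts were summed to genes and whether strand was used are not given in the sources used here.

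A single edgeR 4.0.16 fit (R 4.3.3) took the 23 libraries of the 9 groups with at least 2 libraries: TMM scaling, filterByExpr with a minimum count of 10 and a minimum total of 15, and quasi-likelihood F tests with 14 residual degrees of freedom. Benjamini-Hochberg adjustment ran over all 16206 genes, with calls at 0.05, for 14 comparisons. CPM used effective library sizes over all 25 libraries, and likeness was Pearson's r on log2(CPM + 1). The members and gene lists were chosen with earlier results of these data known. Besides the 9 genes and their 3 most alike genes, the text names the called genes of each pathway role or, where none was called, its most abundant gene. Ltb4r1, Fpr2, Ptgs2os, Ptgs2os2 and single marker genes fell outside that rule. Each result was recomputed with DESeq2 size factors, with DESeq2 1.42.0 tests, with no filter, on only the groups compared, with the replicate number as a block, and without each library in turn. The steps were tested on simulated counts. Gene coordinates are from GENCODE M21 (GRCm38) and promoters from RefSeq (GRCm38.p6).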

Additional observations from a re-analysis of the deposited data

Results flagged for a closer look

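The library whose title and genotype disagree entered no comparison. Its title points to Ripk3-/- Mlkl-/- and its genotype label to Mlkl-/- Ptpn6ΔPMN. Its Alox5ap was at 1265 CPM, above the 3 wild-type libraries (855.9 to 997.0 CPM), and its Ptgs2 was at 6.50 CPM, above their 3.95 to 5.60 CPM. Its Ptpn6 was at 582.4 CPM, within the range of the 11 tested libraries without the Ptpn6 deletion (490.0 to 706.9 CPM). For comparison, Alox5ap was at 1241 and 1207 CPM in Ripk3-/- Mlkl-/- and at 2078 and 2283 CPM in Mlkl-/- Ptpn6ΔPMN. Ptgs2 was at 7.16 and 3.40 CPM in Ripk3-/- Mlkl-/- and at 1.89 and 0.463 CPM in Mlkl-/- Ptpn6ΔPMN.

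In the single Casp8ΔPMN Ptpn6ΔPMN library, which was not tested, Alox5ap was at 2586 CPM, above all 23 tested libraries. Its Lta4h was at 346.9 CPM, with 22 of the 23 below it, against 235.1 to 259.7 CPM in wild-type. Its Ptges was at 11.8 CPM, with 21 of the 23 below it, against 7.99 to 8.83 CPM in wild-type.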

How the results depend on the processing

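The number of the 9 genes called was the same as reported in 161 of 186 alternative results. Without the filter on low counts, Mlkl-/- against wild-type called 1 and any difference among the groups 3. The replicate block called 1 for Mlkl-/- against wild-type (Alox15), 1 for the loss of Ripk3 in Mlkl-/- Ptpn6ΔPMN (Alox5ap) and 2 for any difference, and left the other counts of the 9 genes as they were. Between libraries with the same replicate number, deviations from the group means had correlations from -0.43 to 0.40. These values cannot decide whether the replicate numbers pair libraries, because each group mean rests on few libraries. Over all genes, the block moved the loss of Ripk3 from 3 to 431 calls. DESeq2 tests called 1 for Ptpn6 deletion in Mlkl-/-, 1 for Mlkl-/- against wild-type, 1 for the loss of Ripk3 and 4 for any difference. Fits of only the groups compared called 2 for Ptpn6 deletion in Mlkl-/-, 1 for Ripk3-/- against wild-type (Alox15) and 2 for Ripk3-/- Mlkl-/- against wild-type. Leaving out each library gave 0 to 1 for Ptpn6 deletion in Ripk3-/-, 0 to 4 for the averaged deletion, 0 to 1 for Mlkl-/- against wild-type, 0 to 0 for Ripk3-/- Mlkl-/- against wild-type, 0 to 4 for the loss of Ripk3 and 0 to 4 for any difference. The averaged maximum came without Ripk3-/- Ptpn6ΔPMN replicate 1. The maxima of the last 2 came without Ripk3-/- Mlkl-/- Ptpn6ΔPMN replicate 3, and the calls for the loss of Ripk3 were then Alox5 (log2 change -0.51), Alox5ap (-0.995), Ptgs1 (-0.64) and Ptges (-0.78). Of 1241 alternative log2 changes of the 9 genes, 80 changed sign, none from a called value.

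Counts over all genes moved more. Leaving out 1 library gave 55 to 3315 genes for any difference (256 as reported), 7 to 1037 for the averaged deletion (251), 2 to 191 for Ptpn6 deletion in Mlkl-/- (244) and 3 to 156 in Ripk3-/- (3). It gave 38 to 589 for Mlkl-/- (188), 19 to 85 for Ripk3-/- Mlkl-/- (169) and 23 to 38 for Ripk3-/- (37) against wild-type, and 2 to 4861 for the loss of Ripk3 (3). DESeq2 called 2549, 671, 771, 38, 802, 447, 99 and 1486 for the same 8 comparisons. For Ptpn6 deletion in Ripk3-/- Mlkl-/- (1), leaving out a library gave up to 18 and DESeq2 4, for the difference between backgrounds (0) up to 34, and for the Casp8 difference (1) DESeq2 gave 7. Fits of only the groups compared gave 532 for Ptpn6 deletion in Mlkl-/-, 22 for the averaged deletion, and 891, 833 and 182 for Mlkl-/-, Ripk3-/- Mlkl-/- and Ripk3-/- against wild-type. No filter gave 709 for any difference, 383 for the averaged deletion, 324 for the loss of Ripk3 and 20 for Ptpn6 deletion in Ripk3-/-, and the replicate block gave 101 for Ripk3-/- Mlkl-/- against wild-type. The cause was not tested. Scaling to plain totals lowered the mean of Alox5ap in Mlkl-/- Ptpn6ΔPMN to 1810 CPM and raised that of wild-type to 1052 CPM. A group reduced to 1 library took its spread from the remaining groups. Depth limits Ltc4s most, at 1 to 22 counts in any library.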
